A study of Mus musculus with 16 samples.

Results

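The enzymes that turn threonine into glycine, and the enzymes that then split glycine, were followed in mouse embryonic stem cells that were leaving naive pluripotency. The set holds 6 genes, chosen by name: Tdh, Gcat, Gldc, Amt, Gcsh and Dld. Each was found as 1 row among the 27179 genes of the deposited count table. All 6 members passed the filter on low counts, which kept 14288 genes for testing.

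In mouse mitochondria threonine is broken down in a pair of steps. Threonine dehydrogenase (Tdh) oxidises threonine, and glycine C-acetyltransferase (Gcat) splits the product into glycine and acetyl-CoA. The glycine cleavage system then breaks glycine into carbon dioxide, ammonia and a one-carbon unit that is loaded onto folate: Gldc is the P protein that decarboxylates glycine, Gcsh is the lipoate-bearing H protein that carries the intermediate, Amt is the T protein that hands the carbon to folate, and Dld is the L protein that reoxidises the lipoate. Mouse embryonic stem cells are known for high Tdh and for their dependence on threonine.

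RNA was sequenced from 16 libraries in 8 groups of 2. Cells adapted from serum/LIF culture were kept either in 2i/LIF, which is serum-free, or in serum/LIF+2i, which contains fetal bovine serum. Both media held LIF, a cytokine, and 2i, the inhibitors CHIR99021 (of GSK3) and PD0325901 (of MEK), so that all 0 h groups shared these agents. Exit from naive pluripotency was started by a change to serum-free medium that lacked 2i and LIF, and cells were collected at 0, 12, 24 or 40 h, per the titles. The base of the exit medium also differed: glutamine-free DMEM with glutamine added back was used for the serum/LIF+2i arm, whereas the 2i/LIF arm stayed in its own DMEM/F-12 mix. Effects of the maintenance medium and of the exit medium therefore cannot be told apart at 12 to 40 h. The line, genotype and sex of the cells were not given in the sources used here, and nothing in the labels says that replicates were separate cultures, so p-values measure only the spread between these samples, which may be technical.

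Libraries held between 5931381 and 11142744 counts, and a member was covered by 380 to 5468 counts in any library. Libraries of a group correlated at 0.991 to 0.995 (Pearson, log2 CPM across genes). The summed level of 7 naive pluripotency genes fell from between 4853 and 5216 CPM (counts scaled to the size of the library) per library at 0 h to between 159 and 172 CPM at 40 h, and that of 5 formative genes went from between 126 and 170 CPM to between 1865 and 2706 CPM. The summed markers of primitive endoderm, trophoblast, mesoderm and endoderm, neural cells, fibroblasts and the 2-cell-like state stayed between 0.555 and 57.2 CPM per list in every library. From 0 to 40 h the 2-cell-like genes went from between 3.19 and 5.69 to between 14.4 and 23.2 CPM for 2i/LIF and from between 0.734 and 1.03 to between 35.3 and 36.2 CPM for serum/LIF+2i. The neural genes went from between 1.90 and 2.28 to between 27.7 and 32.9 CPM and from between 5.0 and 5.14 to between 52.5 and 57.2 CPM, and the fibroblast genes from between 3.45 and 3.95 to between 15.1 and 22.3 CPM and from between 2.497 and 2.645 to between 10.5 and 11.7 CPM. Primitive endoderm genes went from between 6.23 and 6.38 to between 11.02 and 13.996 CPM and from between 6.46 and 6.90 to between 15.9 and 16.7 CPM. The tested genes of these lists did not all move alike. For primitive endoderm, log2 fold changes in 2i/LIF were 2.88 (Dab2), -0.53 (Gata4) and -1.45 (Pdgfra). In serum/LIF+2i they were 1.85, 0.61 and -0.10. The fibroblast gene Dcn rose from 0 counts in both media. Thy1, Col1a1 and Col1a2 changed by 3.13, 0.75 and -0.96 in 2i/LIF and by 1.18, 1.38 and 1.44 in serum/LIF+2i. Gata4 and Col1a2 in both media, Col1a1 in 2i/LIF and Pdgfra in serum/LIF+2i did not pass the threshold used below. Mesoderm and endoderm genes dropped from between 30.1 and 35.2 to between 1.49 and 2.00 CPM and from between 16.7 and 22.0 to between 2.33 and 2.42 CPM, and trophoblast genes from between 18.8 and 22.2 to 4.76 CPM and from between 16.9 and 20.9 to between 5.95 and 6.48 CPM. The part of these other cell types in the results was not tested. In bulk RNA, fewer cells of a kind and less RNA per cell cannot be told apart.

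Tdh carried the largest change of the 6 genes. It lies on chromosome 14, from 63492347 to 63509092 on the minus strand. Positions of members are RefSeq gene spans and strands are from GENCODE M21, both on GRCm38, the mm10 build named in the submitters' processing notes. In 2i/LIF its level was 841 and 831 CPM in the libraries at 0 h, 467 and 460 CPM at 12 h, 251 and 251 CPM at 24 h, and 80.3 and 72.0 CPM at 40 h. Cells from serum/LIF+2i had 745 and 781 CPM at 0 h, 446 and 447 CPM at 12 h, 127 and 120 CPM at 24 h, and 43.6 and 39.9 CPM at 40 h. Every later time was below every earlier one in each medium, with no overlap. Ordered by level, the 8 groups also stood apart from each of their neighbours, the 0 h groups highest and serum/LIF+2i at 40 h lowest, and the highest group mean was 20.0 times the lowest.

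Tdh fell at each time of exit. In edgeR's quasi-likelihood test with Benjamini-Hochberg adjustment over all tested genes, the log2 fold change in 2i/LIF was -0.85 ± 0.0376 (SE) at 12 h (adjusted p = 2.33e-42), -1.73 ± 0.0400 at 24 h (adjusted p = 3.32e-71) and -3.45 ± 0.0460 at 40 h (adjusted p = 1.5e-97), the last an 11.0-fold drop. In serum/LIF+2i it was -0.77 ± 0.0374 at 12 h (adjusted p = 5.25e-39), -2.63 ± 0.0420 at 24 h (adjusted p = 9.84e-89) and -4.19 ± 0.0477 at 40 h (adjusted p = 2.21e-105), an 18.2-fold drop. Changes at least this large in either direction were found at 40 h for 6.19% of tested genes with 2i/LIF and for 4.37% with serum/LIF+2i. The drop continued in each step. Between 12 and 24 h the log2 change was -0.88 for 2i/LIF (adjusted p = 3.42e-40) and -1.85 for serum/LIF+2i (adjusted p = 7.35e-71), and between 24 and 40 h it was -1.72 (adjusted p = 1.26e-60) and -1.56 (adjusted p = 1.37e-52).

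Tdh counts carry an uncertainty. The GENCODE M21 annotation holds a transcribed processed pseudogene, Gm13929, that matched a Tdh transcript at 97.1% identity over 1125 bases. Gm13929 has no row in the count table. The same annotation holds an antisense gene, Gm17232, that shares 66 exon bases with Tdh. How reads that fit more than 1 place were counted, and with which strand setting, was not given in the sources used here.

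**Figure D1:**
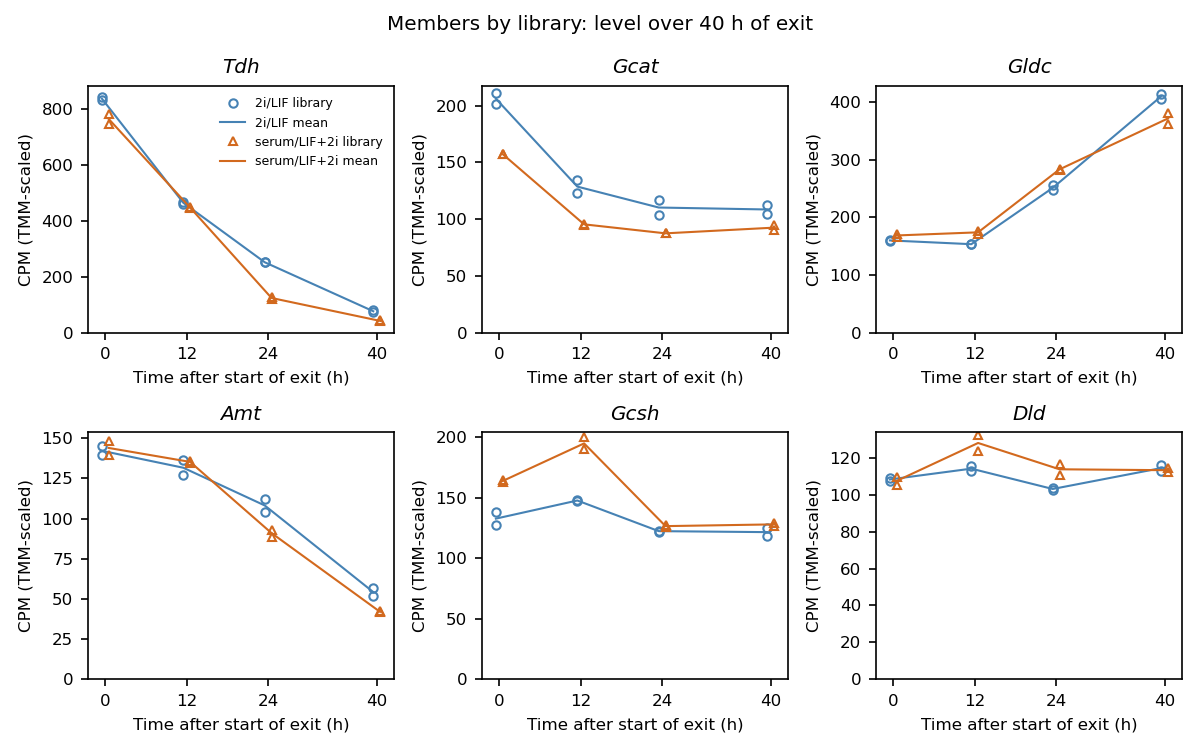
Level of each of the 6 genes in CPM (y axis, from 0) against time of exit in hours (x axis). Circles are 2i/LIF libraries, triangles serum/LIF+2i libraries and lines group means of 2 libraries; Tdh dropped from between 745 and 841 CPM to between 39.9 and 80.3 CPM while Gldc climbed to between 362 and 415 CPM.

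Gcat fell as well, and most of its change had happened by 12 h. It lies on chromosome 15, from 79030874 to 79042531 on the plus strand. In 2i/LIF the libraries held 211 and 201 CPM at 0 h, 135 and 123 CPM at 12 h, 104 and 117 CPM at 24 h, and 104 and 113 CPM at 40 h. The serum/LIF+2i libraries held 157 and 157 CPM at 0 h, 94.7 and 96.0 CPM at 12 h, 87.4 and 87.5 CPM at 24 h, and 95.0 and 90.0 CPM at 40 h. The 0 h libraries were above all later libraries of their medium, and the 24 and 40 h libraries of 2i/LIF overlapped.

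The log2 fold change of Gcat against 0 h in 2i/LIF was -0.68 ± 0.0533 at 12 h (adjusted p = 2.16e-22), -0.90 ± 0.0553 at 24 h (adjusted p = 1.3e-30) and -0.93 ± 0.0544 at 40 h (adjusted p = 2.98e-32). The serum/LIF+2i values were -0.72 ± 0.0562 (adjusted p = 1.05e-22), -0.85 ± 0.0559 (adjusted p = 3.94e-28) and -0.76 ± 0.0542 (adjusted p = 5.14e-26). After 12 h only the step to 24 h in 2i/LIF was called (-0.23, adjusted p = 0.000897), and it was not called without 2i/LIF 12 h replicate 1 (-0.16, adjusted p = 0.0784) or without 2i/LIF 24 h replicate 1 (-0.14, adjusted p = 0.133). The step from 24 to 40 h was -0.022 in 2i/LIF (adjusted p = 0.791) and 0.082 in serum/LIF+2i (adjusted p = 0.227), the last called with library size as the only scaling (0.13, adjusted p = 0.0492). Gcat shares 363 exon bases on the same strand with Galr3, a gene with 0 to 1 counts per library.

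In the cleavage system itself, Gldc and Amt went in opposite directions. Gldc, the decarboxylase that starts the reaction, rose by 40 h, 2.56-fold in 2i/LIF cells and 2.21-fold in serum/LIF+2i cells, and Amt, whose product releases the one-carbon unit, fell 2.62-fold and 3.44-fold. The 250 bases before each RefSeq start site (GRCm38.p6) are given here because these are the members of 1 enzyme system that moved apart. The sequence of Amt is on chromosome 9, plus strand, and that of Gldc on chromosome 19, minus strand, both written 5′ to 3′ on the gene's strand, with capitals for the only motif match found in each, a CCAAT box.
Amt, chr9:108296655-108296904: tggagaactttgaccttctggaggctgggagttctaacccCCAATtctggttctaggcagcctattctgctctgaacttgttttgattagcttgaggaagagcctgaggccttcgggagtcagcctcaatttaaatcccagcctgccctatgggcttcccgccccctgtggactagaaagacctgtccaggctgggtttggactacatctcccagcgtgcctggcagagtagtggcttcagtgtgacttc
Gldc, chr19:30175442-30175691: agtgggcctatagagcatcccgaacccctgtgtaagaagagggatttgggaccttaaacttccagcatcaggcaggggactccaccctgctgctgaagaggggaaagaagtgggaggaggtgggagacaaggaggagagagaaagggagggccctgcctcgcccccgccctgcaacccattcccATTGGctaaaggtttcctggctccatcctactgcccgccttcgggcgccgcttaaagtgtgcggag

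The search covered both strands of 300 bases, from 250 before to 50 after the start, for 7 motifs: CCAAT (the CCAAT box), CACGTG (an E-box), TCAAGGTCA (the nuclear receptor half-site of Esrrb), ATGCAAAT (the octamer), TGATGNAA (the ATF4 and C/EBP composite element), GGGNGTGG (a KLF motif) and TATAAA (the TATA box). The CCAAT box was found in 37.4% of 32544 distinct promoters, and began 210 bases before the start in Amt and 66 bases before it in Gldc, in Gldc as its reverse complement. The shares of the other motifs were 7.17% for the E-box, 0.412% for the Esrrb half-site, 1.75% for the octamer, 3.91% for the composite element, 17.7% for the KLF motif and 13.6% for the TATA box. Promoters were at hand for 5 of the 6 members: Gcsh and Dld held 2 CCAAT boxes each and Gcat held 1 E-box. None of these matches overlapped another. GC content was 54.7% in Amt and 59.0% in Gldc, against a median of 53% over all promoters.

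Gldc lies on chromosome 19, from 30098441 to 30175441 on the minus strand. Its level in 2i/LIF was 159 and 161 CPM at 0 h, 154 and 153 CPM at 12 h, 256 and 247 CPM at 24 h, and 415 and 406 CPM at 40 h. In serum/LIF+2i it was 166 and 171 CPM at 0 h, 177 and 171 CPM at 12 h, 285 and 282 CPM at 24 h, and 382 and 362 CPM at 40 h. The levels at 0 and 12 h lay close together, and the 24 h and 40 h libraries were each above all earlier ones of their medium.

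At 12 h the log2 fold change of Gldc did not pass the threshold in 2i/LIF (-0.061 ± 0.0482, adjusted p = 0.321) or with serum/LIF+2i (0.045 ± 0.0458, adjusted p = 0.438). At 24 h it was 0.65 ± 0.0458 (adjusted p = 5.65e-26) and 0.75 ± 0.0431 (adjusted p = 7.28e-33), and at 40 h it was 1.36 ± 0.0434 (adjusted p = 7.35e-57) and 1.14 ± 0.0418 (adjusted p = 5.94e-51). Gldc thus rose in both later steps, by 0.71 from 12 to 24 h in 2i/LIF (adjusted p = 1.1e-28) and by 0.70 with serum/LIF+2i (adjusted p = 3.13e-31). From 24 to 40 h it rose by 0.71 in 2i/LIF (adjusted p = 1.33e-32) and by 0.39 with serum/LIF+2i (adjusted p = 6.58e-17).

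Amt lies on chromosome 9, from 108296905 to 108302302 on the plus strand. In 2i/LIF it held 145 and 139 CPM at 0 h, 127 and 136 CPM at 12 h, 104 and 112 CPM at 24 h, and 56.7 and 51.6 CPM at 40 h. With serum/LIF+2i it held 148 and 140 CPM at 0 h, 136 and 134 CPM at 12 h, 93.1 and 88.8 CPM at 24 h, and 41.5 and 42.2 CPM at 40 h. The 24 and 40 h libraries were below all libraries of 0 and 12 h, and the 0 h groups of the media overlapped.

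Amt fell mainly after 12 h. Its 12 h libraries already lay below those of 0 h in each medium, but the log2 fold change at 12 h was -0.11 ± 0.0557 in 2i/LIF (adjusted p = 0.101) and -0.090 ± 0.0535 in serum/LIF+2i (adjusted p = 0.152), which did not pass the threshold. At 24 h it was -0.40 ± 0.0582 (adjusted p = 2.5e-09) and -0.66 ± 0.0558 (adjusted p = 7.43e-21), and at 40 h it was -1.39 ± 0.0646 (adjusted p = 4.87e-41) and -1.78 ± 0.0620 (adjusted p = 3.37e-53). From 12 to 24 h Amt fell by 0.29 in 2i/LIF (adjusted p = 1.82e-05) and by 0.57 with serum/LIF+2i (adjusted p = 2.98e-17), and from 24 to 40 h by 0.99 (adjusted p = 4.53e-27) and 1.12 (adjusted p = 1.24e-32).

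**Figure D2:**
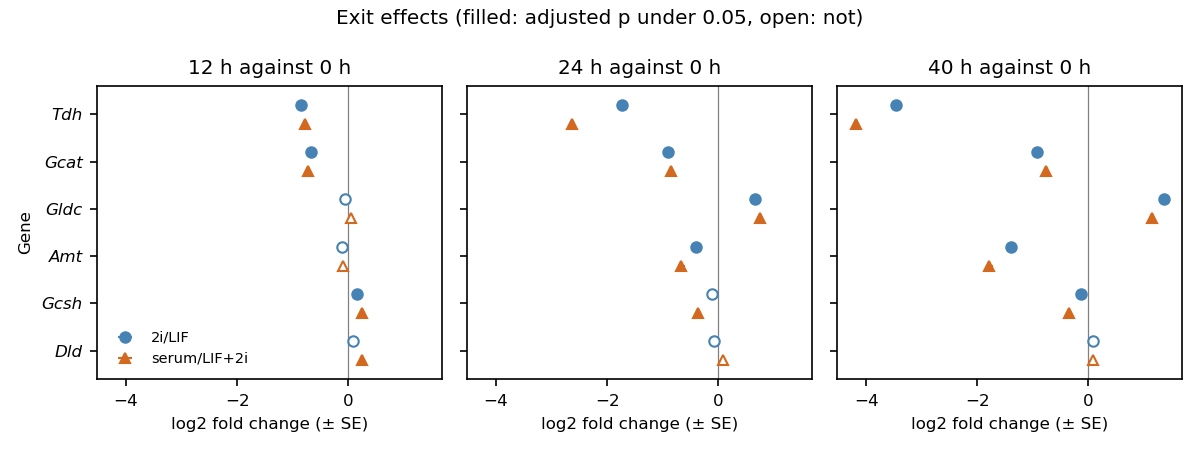
Log2 fold change against 0 h with its SE (x axis) for the 6 genes (y axis) at 12, 24 and 40 h, circles for 2i/LIF and triangles for serum/LIF+2i, filled where the adjusted p was under 0.05. At 40 h Tdh sits at -3.45 and -4.19, Gldc at 1.36 and 1.14, and Dld, open, near 0 in both media.

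Gcsh and Dld differed least between 0 and 40 h. Gcsh lies on chromosome 8, from 116981967 to 116993498 on the minus strand. In 2i/LIF its libraries held 127 and 138 CPM at 0 h, 148 and 147 CPM at 12 h, 123 and 122 CPM at 24 h, and 125 and 118 CPM at 40 h. The serum/LIF+2i libraries held 165 and 163 CPM at 0 h, 200 and 190 CPM at 12 h, 127 and 125 CPM at 24 h, and 126 and 129 CPM at 40 h. The 12 h libraries were highest in each medium, and those of 24 and 40 h overlapped in both.

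In serum/LIF+2i Gcsh rose at 12 h (0.25 ± 0.0488, adjusted p = 6.05e-06) and was lower than at 0 h at 24 h (-0.37 ± 0.0508, adjusted p = 1.38e-10) and 40 h (-0.36 ± 0.0498, adjusted p = 2.56e-10). In 2i/LIF the change was 0.15 ± 0.0539 at 12 h (adjusted p = 0.015), -0.12 ± 0.0560 at 24 h (adjusted p = 0.0587) and -0.13 ± 0.0551 at 40 h (adjusted p = 0.0328). The 2i/LIF calls were not stable. At 12 h the call was lost without 2i/LIF 0 h replicate 1 (0.097, adjusted p = 0.248), without 2i/LIF 12 h replicate 1 (0.15, adjusted p = 0.0682) and with DESeq2 (0.16, adjusted p = 0.0642). The 24 h change was called without 2i/LIF 0 h replicate 1 (-0.18, adjusted p = 0.0191) or serum/LIF+2i 0 h replicate 2 (-0.12, adjusted p = 0.0484). At 40 h the call was lost without 2i/LIF 0 h replicate 2 (-0.067, adjusted p = 0.409), without 2i/LIF 40 h replicate 2 (-0.087, adjusted p = 0.24) with DESeq2 (-0.11, adjusted p = 0.164) and under other scalings, filters and fits (adjusted p from 0.0516 to 0.332).

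From 12 to 24 h Gcsh fell by 0.27 in 2i/LIF (adjusted p = 1.38e-05) and by 0.62 in serum/LIF+2i (adjusted p = 1.21e-22). The step from 24 to 40 h was -0.0089 in 2i/LIF (adjusted p = 0.912) and 0.016 in serum/LIF+2i (adjusted p = 0.81). Counts of Gcsh are uncertain where reads could also fit a copy: 4 processed pseudogenes matched it at 90.4% to 91.4% identity over 323 to 523 bases and have no row in the count table, and a retained-intron transcript of Cysltr2 (3 to 46 counts per library) matched at 93.2% over 353 bases.

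Dld is shared with the pyruvate, 2-oxoglutarate, 2-oxoadipate and branched-chain keto acid dehydrogenase complexes, and lies on chromosome 12, from 31331562 to 31351471 on the minus strand. Its libraries held between 103 and 132 CPM throughout, and the highest group mean was 1.24 times the lowest. In 2i/LIF the log2 fold change against 0 h was 0.076 ± 0.0587 at 12 h (adjusted p = 0.302), -0.070 ± 0.0604 at 24 h (adjusted p = 0.324) and 0.081 ± 0.0583 at 40 h (adjusted p = 0.21). In serum/LIF+2i Dld rose at 12 h, where the libraries held 132 and 124 CPM against 105 and 110 CPM at 0 h (0.25 ± 0.0557, adjusted p = 6.81e-05). At 24 and 40 h there its changes of 0.081 ± 0.0558 (adjusted p = 0.196) and 0.075 ± 0.0547 (adjusted p = 0.214) did not pass the threshold. With library size as the only scaling, Dld was called at 40 h in 2i/LIF (0.15, adjusted p = 0.0201) and in the other medium (0.15, adjusted p = 0.01), there also when genes averaging under 5 CPM were left out (0.12, adjusted p = 0.0384).

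The step of Dld from 12 to 24 h was called in 2i/LIF (-0.15, adjusted p = 0.0392) and for serum/LIF+2i (-0.17, adjusted p = 0.00484), and that from 24 to 40 h in 2i/LIF (0.15, adjusted p = 0.0241) but not in serum/LIF+2i (-0.0058, adjusted p = 0.934). In 2i/LIF the first step was not called without any 1 of the 4 libraries of 12 and 24 h (-0.17 to -0.13, adjusted p from 0.0644 to 0.168). The second was not called without 2i/LIF 24 h replicate 1 (0.15, adjusted p = 0.0888), 24 h replicate 2 (0.14, adjusted p = 0.106) or 40 h replicate 1 (0.13, adjusted p = 0.149). The serum/LIF+2i step was lost without 12 h replicate 1 (-0.12, adjusted p = 0.119) or 24 h replicate 2 (-0.13, adjusted p = 0.105). With DESeq2 neither 2i/LIF step was called (adjusted p = 0.133 and 0.0624).

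The number of members called was set against all tested genes, of which many passed the same threshold. In 2i/LIF 1 member was higher and 2 were lower at 12 h, where 21.0% of tested genes were higher and 23.7% lower. At 24 h 1 was higher and 3 were lower (all genes 29.2% and 29.6%), and at 40 h 1 was higher and 4 were lower (34.1% and 34.7%). Among serum/LIF+2i cells 2 were higher and 2 lower at 12 h (25.3% and 25.9%), 1 higher and 4 lower at 24 h (32.4% and 32.0%), and 1 higher and 4 lower at 40 h (35.3% for higher and 35.3% for lower). The step from 12 to 24 h was called for 6 members in 2i/LIF, against 35.1% of tested genes in either direction, and for 5 in serum/LIF+2i, against 48.4%. The step from 24 to 40 h was called for 4 members in 2i/LIF, against 46.7%, and for 3 in serum/LIF+2i, against 50.5%. Under a test against a change of at least 1 on the log2 scale, 3 members were called at 40 h in each medium, Tdh, Gldc and Amt.

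Before exit, no member differed by more than 1.31-fold between the maintenance media. At 0 h Gcat was lower in serum/LIF+2i than in 2i/LIF (-0.39 ± 0.0524, adjusted p = 4.91e-10) and Gcsh was higher (0.30 ± 0.0537, adjusted p = 1.72e-06), with no overlap between the libraries of either gene. Tdh was lower by 0.13 on the log2 scale (SE 0.0367, adjusted p = 0.00274), a call lost without serum/LIF+2i 0 h replicate 1 (-0.096, adjusted p = 0.0907). The differences of Gldc (0.075 ± 0.0481, adjusted p = 0.237), Amt (0.019 ± 0.0556, adjusted p = 0.835) and Dld (-0.010 ± 0.0601, adjusted p = 0.925) did not pass the threshold. So 1 member was higher and 2 were lower, where 14.6% of tested genes were higher and 18.4% lower.

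During exit the media drew apart in Tdh. At 12 h its difference was -0.054 ± 0.0382 (adjusted p = 0.3), and at 24 and 40 h it was lower in serum/LIF+2i by 1.02 (SE 0.0448, adjusted p = 1.3e-41) and 0.87 (SE 0.0597, adjusted p = 2.8e-25) on the log2 scale. Amt was lower in serum/LIF+2i at 24 h (-0.25 ± 0.0586, adjusted p = 0.000336) and 40 h (-0.37 ± 0.0733, adjusted p = 1.92e-05), after a difference of 0.038 ± 0.0535 at 12 h (adjusted p = 0.635). Gcat stayed lower at 12 h (-0.43, adjusted p = 4.03e-10), 24 h (-0.33, adjusted p = 2.22e-06) and 40 h (-0.23, adjusted p = 0.000901), the last lost without 2i/LIF 40 h replicate 2 (-0.18, adjusted p = 0.0527).

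Gldc changed sides between the media over time. It was higher in serum/LIF+2i at 12 h (0.18 ± 0.0458, adjusted p = 0.00101) and 24 h (0.17 ± 0.0409, adjusted p = 0.000362) and lower at 40 h (-0.14 ± 0.0374, adjusted p = 0.00191), the 40 h call being lost without serum/LIF+2i 40 h replicate 2 (-0.11, adjusted p = 0.0787). Gcsh was higher in serum/LIF+2i at 12 h (0.40 ± 0.0489, adjusted p = 2e-11), with differences of 0.048 (adjusted p = 0.532) and 0.073 (adjusted p = 0.308) at 24 and 40 h. Dld was called higher in serum/LIF+2i at 12 h (0.16, adjusted p = 0.0146) and 24 h (0.14, adjusted p = 0.044), but not at 40 h (-0.016, adjusted p = 0.863). The 12 h call of Dld was lost without 2i/LIF 12 h replicate 2 (0.14, adjusted p = 0.126), without serum/LIF+2i 12 h replicate 1 (0.12, adjusted p = 0.186) and with DESeq2 (0.17, adjusted p = 0.0842). Its 24 h call was lost without 2i/LIF 24 h replicate 1 (0.15, adjusted p = 0.145), 2i/LIF 24 h replicate 2 (0.13, adjusted p = 0.164) or serum/LIF+2i 24 h replicate 1 (0.10, adjusted p = 0.295), and with DESeq2 (0.15, adjusted p = 0.139).

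In all, 3 members were higher in serum/LIF+2i and 1 lower at 12 h, where 14.8% and 15.5% of tested genes were. At 24 h 2 were higher and 3 lower (14.1% and 17.0%), and at 40 h none was higher and 4 were lower (13.9% and 13.4%), namely Tdh, Gcat, Gldc and Amt.

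A difference between the media in the size of the exit effect was tested as the effect in serum/LIF+2i minus that in 2i/LIF. For Tdh it was 0.077 ± 0.0529 at 12 h (adjusted p = 0.44), -0.89 ± 0.0580 at 24 h (adjusted p = 9.84e-27) and -0.74 ± 0.0701 at 40 h (adjusted p = 2.16e-16), so that Tdh fell further in serum/LIF+2i from 24 h on. For Amt it was 0.019 (adjusted p = 0.932), -0.27 ± 0.0807 (adjusted p = 0.00883) and -0.39 ± 0.0919 (adjusted p = 0.000372). The 24 h value of Amt was not called without 2i/LIF 0 h replicate 2 (-0.23, adjusted p = 0.0792), 2i/LIF 24 h replicate 2 (-0.22, adjusted p = 0.0942), serum/LIF+2i 0 h replicate 1 (-0.23, adjusted p = 0.0623) or serum/LIF+2i 24 h replicate 2 (-0.23, adjusted p = 0.0634), nor with DESeq2 (-0.26, adjusted p = 0.0942).

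For Gldc the difference in exit effect was 0.11 (adjusted p = 0.39), 0.098 (adjusted p = 0.297) and -0.22 ± 0.0610 (adjusted p = 0.0036) at 12, 24 and 40 h, the rise by 40 h being smaller in serum/LIF+2i. For Gcsh it was 0.097 (adjusted p = 0.497), -0.25 ± 0.0756 (adjusted p = 0.00796) and -0.23 ± 0.0742 (adjusted p = 0.0129). The Gcsh values were not called at 24 h without 2i/LIF 0 h replicate 1 (-0.18, adjusted p = 0.13) and at 40 h without 2i/LIF 0 h replicate 1 (-0.17, adjusted p = 0.127), 2i/LIF 40 h replicate 1 (-0.19, adjusted p = 0.0981) or serum/LIF+2i 40 h replicate 1 (-0.21, adjusted p = 0.0542). With DESeq2 they were not called either (-0.24, adjusted p = 0.0718 at 24 h and -0.22, adjusted p = 0.0857 at 40 h). For Gcat the values were -0.041 (adjusted p = 0.833), 0.058 (adjusted p = 0.668) and 0.16 (adjusted p = 0.11), and for Dld 0.17 (adjusted p = 0.195), 0.15 (adjusted p = 0.2) and -0.0057 (adjusted p = 0.975).

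No member was called at 12 h, where 9.20% of tested genes were called in either direction by edgeR, 1 member, Dld, having an unadjusted p of 0.035, and DESeq2 also called 0 members. At 24 h 3 members were called, against 20.8% of tested genes in either direction. All 3 were lower, as were 1570 of the 2966 genes called (11.0% of tested genes). At 40 h 4 were called, against 27.6%. All 4 were lower, as were 1831 of the 3940 genes called (12.8% of tested genes).

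Per length of gene, the make-up of the set was turned over. Different genes were compared as CPM per kilobase of the deposited gene length. That is 1 fixed length per gene, so the isoform expressed was not accounted for. The uncertainties given above for Tdh and Gcsh counts carry over. On this scale Tdh stood at 444 ± 3.79 (SD, n = 2) in 2i/LIF at 0 h and at 406 ± 13.6 in serum/LIF+2i, above every other member. Its share of the summed level of the 6 genes went from 54.8% ± 0.218 at 0 h through 41.7% and 29.3% to 11.0% ± 0.528 at 40 h in 2i/LIF, and from 51.8% ± 1.05 through 38.3% and 17.1% to 6.72% ± 0.349 in serum/LIF+2i. The ratio of Tdh to Gldc went from 10.4 ± 0.208 to 0.370 ± 0.0225 in 2i/LIF and from 9.03 ± 0.128 to 0.224 ± 0.00601 in serum/LIF+2i. Gldc passed Tdh between 24 and 40 h in 2i/LIF, where the ratio was 2.00 at 24 h, and by 24 h in serum/LIF+2i, where it was 0.871.

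Inside the cleavage system the balance also turned. Gldc stood at 0.397 ± 0.0154 of Amt per length at 0 h and at 2.68 ± 0.135 times Amt at 40 h in 2i/LIF, and at 0.414 ± 0.0255 and 3.13 ± 0.149 in serum/LIF+2i. The summed level of Gldc, Amt, Gcsh and Dld nevertheless held between 277 and 351 CPM per kilobase over the 8 groups. Tdh stood at 6.42 ± 0.165 times Gcat at 0 h in 2i/LIF and at 1.11 ± 0.144 times at 40 h, and at 7.68 ± 0.255 and 0.714 ± 0.0181 times in serum/LIF+2i. These shares and ratios were not tested.

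**Figure D3:**
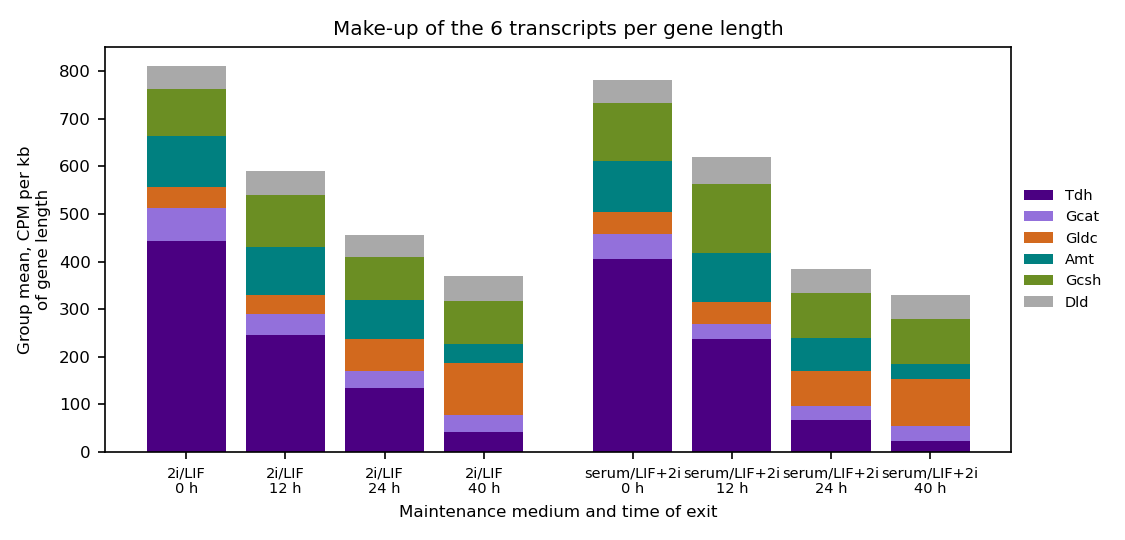
Group means in CPM per kilobase of gene length (y axis, from 0), stacked over the 6 genes, for the 8 groups of medium and time (x axis). The Tdh block shrinks from 54.8% to 11.0% of the stack in 2i/LIF and from 51.8% to 6.72% in serum/LIF+2i, while the Gldc block widens.

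Across the 16 libraries, which share time and medium, the genes whose log2 level most resembled each member were sought among 10769 tested genes whose mean reached 5 CPM. These correlations are descriptions without a test. Nearest to Tdh was Nanog, a homeodomain factor of naive pluripotency (Pearson's r 0.996, Spearman's rho 0.968), followed by Prdm14, a regulator of the naive state (0.991 and 0.991), and Cox6b1, a subunit of cytochrome c oxidase (0.990 and 0.971). Nearest to Amt were Esrrb, an orphan nuclear receptor of naive cells (0.997 and 0.974), Mylpf, a myosin light chain (0.994 and 0.921), and Sdc4, a cell surface proteoglycan (0.993 and 0.915). The size of the change was not matched, since r measures only its shape. Over 40 h in 2i/LIF, mean Nanog dropped to 27.8 CPM from 665 CPM and Esrrb to 37.4 CPM from 916 CPM, while Cox6b1 was at 309 CPM and then 140 CPM.

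Nearest to Gldc were Dtx4, a Deltex E3 ubiquitin ligase (0.989 and 0.932), Setd7, a lysine methyltransferase (0.987 and 0.941), and Spire1, an actin nucleator (0.983 and 0.912). Over the same time mean Setd7 reached 120 CPM from 9.51 CPM and Dtx4 reached 38.6 CPM from 2.09 CPM. Gcat resembled Ogdhl, a 2-oxoglutarate dehydrogenase-like subunit (0.981 and 0.944), Arpc1b, of the Arp2/3 complex (0.978 and 0.985), and Ctsc, the protease cathepsin C (0.978 and 0.926). Arpc1b shares 931 exon bases on the opposite strand with Pdap1.

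Gcsh had less close matches, Myo18a (0.937 and 0.941), Tst, a mitochondrial sulfurtransferase (0.934 and 0.918), and Plcd3 (0.926 and 0.856), and Dld had the loosest, Clpx, a subunit of the mitochondrial Clp protease (0.802 and 0.656), Upf3b (0.800 and 0.735) and Rhod (0.792 and 0.556). Among the members themselves, Tdh and Amt ran together (r 0.963, rho 0.953) and Gldc ran against both (r -0.948 and -0.935). Tdh and Gcat, the consecutive enzymes, had r 0.729 and rho 0.779.

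**Figure D4:**
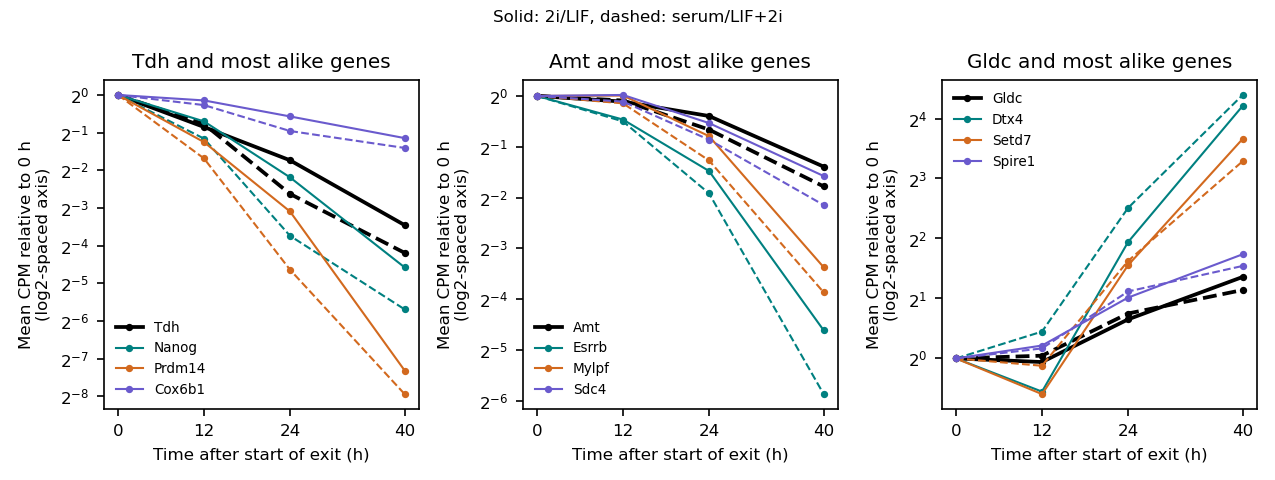
Group mean CPM relative to 0 h (y axis, spaced by log2) against time of exit in hours (x axis) for Tdh, Amt and Gldc in black and the 3 genes most like each in colour, solid for 2i/LIF and dashed for serum/LIF+2i. The lines of a panel end on the same side of their 0 h level but differ in size and in the 12 h point, Cox6b1 falling least and Prdm14 most beside Tdh. At 40 h Prdm14 had only 3 to 5 counts per library, so the size of its fall is uncertain.

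The neighbouring pathways were read from 5 lists of 65 genes in all, at 40 h of exit, where 34.1% of tested genes were higher and 34.7% lower in 2i/LIF and 35.3% were higher and 35.3% lower with serum/LIF+2i. Of 14 other threonine, serine and glycine enzymes, 9 were tested. In each medium 4 were higher and 3 lower, with a median log2 fold change of 0.068 (2i/LIF) and 0.026 (serum/LIF+2i). Over the other fits, apart from the test against a log2 change of at least 1, the counts in each medium ranged from 2 to 5 higher and 2 to 3 lower. In each medium 2 of the 4 higher genes were Gatm and Gnmt, which had 1 to 6 counts per library at 0 h and passed the filter only through later groups. With genes averaging under 5 CPM left out, 2 were higher and 2 lower in each medium. Shmt2, the mitochondrial serine hydroxymethyltransferase that makes glycine from serine, rose to 635 CPM from 279 CPM with serum/LIF+2i (1.18 ± 0.0390, adjusted p = 1.21e-55) and to 412 CPM from 306 CPM with 2i/LIF (0.43, adjusted p = 4.84e-18). Shmt1, its cytosolic counterpart, fell (2i/LIF: -0.74 ± 0.0519, adjusted p = 2.69e-26, and serum/LIF+2i: -0.97 ± 0.0490, adjusted p = 5.12e-38).

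Gss, the glutathione synthetase that uses glycine, fell to 25.6 CPM from 170 CPM with 2i/LIF (-2.73 ± 0.0737, adjusted p = 1.95e-64) and to 23.0 CPM from 112 CPM with serum/LIF+2i (-2.29 ± 0.0737, adjusted p = 1.58e-56). Gart, which adds glycine and formyl groups to growing purines, rose (0.84 ± 0.0370, adjusted p = 5.44e-43 and 0.38, adjusted p = 2.33e-18). The other enzymes that could degrade threonine were near or below the limit of counting: Tha1 (threonine aldolase) had 0 to 11 counts per library, Sds (serine dehydratase) 0 to 3 and Sdsl, its relative, 0 to 12. Exons of Gss, Shmt1 and Shmt2 overlap on the opposite strand with Acss2, Smcr8 and Ndufa4l2.

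In the serine synthesis and folate list, 14 of 15 were tested, with 8 higher and 2 lower for 2i/LIF and 9 higher with 3 lower for serum/LIF+2i (medians 0.49 and 0.81). Mthfd2, the mitochondrial methylene-tetrahydrofolate dehydrogenase that handles the one-carbon unit Amt releases, rose. In 2i/LIF its mean level was 110 CPM at 0 h and 354 CPM at 40 h (1.68 ± 0.0481, adjusted p = 7.75e-62), and for serum/LIF+2i 107 CPM and 403 CPM (1.92 ± 0.0462, adjusted p = 8.85e-70). Psat1, the aminotransferase of serine synthesis, rose (0.85 ± 0.0361, adjusted p = 6.76e-45 and 0.84 ± 0.0352, adjusted p = 2.02e-45), as did Mthfd1l, the mitochondrial formate-producing enzyme (0.76, adjusted p = 5.81e-31 and 0.93 ± 0.0438, adjusted p = 9.2e-41). Against these, Aldh1l1, the cytosolic formyl-tetrahydrofolate dehydrogenase, fell, from 71.2 CPM to 5.15 CPM for 2i/LIF (-3.79 ± 0.137, adjusted p = 1.89e-51) and, for serum/LIF+2i, from 33.1 CPM to 4.48 CPM (-2.89, adjusted p = 4.15e-37).

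Of the carriers of threonine and glycine, 8 of 10 were tested, with 6 higher and 1 lower for 2i/LIF and 7 higher with 1 lower for serum/LIF+2i (medians 0.78 and 0.80). Slc38a2, a sodium-coupled neutral amino acid carrier, rose to 801 CPM from 269 CPM with 2i/LIF (1.57 ± 0.0380, adjusted p = 1.54e-69) and to 834 CPM from 270 CPM with serum/LIF+2i (1.63 ± 0.0374, adjusted p = 5.32e-72). Slc6a9, the glycine transporter GlyT1, rose to 56.2 CPM from 10.2 CPM (2.45 ± 0.126, adjusted p = 1.62e-36) and to 82.8 CPM from 9.84 CPM (3.07 ± 0.111, adjusted p = 1.5e-50), and its exons overlap those of Ccdc24 and B4galt2 on the opposite strand. Slc38a1, of the same family as Slc38a2, rose by 1.02 (SE 0.0457, adjusted p = 3.33e-42) for 2i/LIF and by 1.00 (SE 0.0419, adjusted p = 6.42e-45) for serum/LIF+2i. Slc1a4, a neutral amino acid exchanger, rose by 1.25 (SE 0.0703, adjusted p = 8.06e-34) and by 2.22 (SE 0.0711, adjusted p = 7.18e-57).

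The lipoate that Gcsh carries is made and attached by a list of which 14 of 15 genes were tested. For 2i/LIF 5 were higher and 1 lower, and for serum/LIF+2i 2 were higher and 2 lower (medians 0.23 and -0.087). Lias, the lipoyl synthase, stood at 44.8 and 44.2 CPM at 0 and 40 h in 2i/LIF (-0.024, adjusted p = 0.824) and fell in serum/LIF+2i (-0.48 ± 0.0802, adjusted p = 6.45e-08). Nfu1, which supplies iron-sulfur clusters, fell in both (-0.62 ± 0.0759, adjusted p = 1.39e-12 and -0.31 ± 0.0742, adjusted p = 0.000134), and Mecr, of mitochondrial fatty acid synthesis, rose in both (0.64 ± 0.146, adjusted p = 4.93e-05 and 0.95 ± 0.121, adjusted p = 9.72e-12). Lipt2, the octanoyl transferase, rose by 0.61 in 2i/LIF (SE 0.199, adjusted p = 0.00496), a call lost without 2i/LIF 0 h replicate 1 (0.52, adjusted p = 0.0546). For serum/LIF+2i it rose by 0.61 (SE 0.192, adjusted p = 0.00338), lost without serum/LIF+2i 0 h replicate 2 (0.49, adjusted p = 0.0645), which left 1 gene of the list higher there. The higher count in 2i/LIF was 2 with DESeq2 and without 2i/LIF 0 h replicate 1, 2i/LIF 0 h replicate 2 or 2i/LIF 40 h replicate 2.

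Of the 11 other subunits of complexes that use Dld, 4 were higher and 5 lower for 2i/LIF and 2 were higher with 5 lower for serum/LIF+2i (medians -0.12 and -0.085). The higher count in 2i/LIF was 2 with DESeq2, and 1 without 2i/LIF 0 h replicate 2 or 2i/LIF 40 h replicate 1. For serum/LIF+2i it was 4 with library size only, and 3 with DESeq2 size factors or with genes averaging under 5 CPM left out. Pdha1, of pyruvate dehydrogenase, fell (-0.74 ± 0.0418, adjusted p = 1.19e-33 and -1.21 ± 0.0402, adjusted p = 2.16e-55), as did Ogdhl (-1.06 ± 0.0491, adjusted p = 3.98e-41 and -0.87 ± 0.0483, adjusted p = 2.64e-34). Dlst, the succinyltransferase of the 2-oxoglutarate complex, rose (0.47 ± 0.0531, adjusted p = 6.63e-14 and 0.59 ± 0.0505, adjusted p = 2.18e-20). Pdha1 shares 603 exon bases on the opposite strand with Map3k15.

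**Figure D5:**
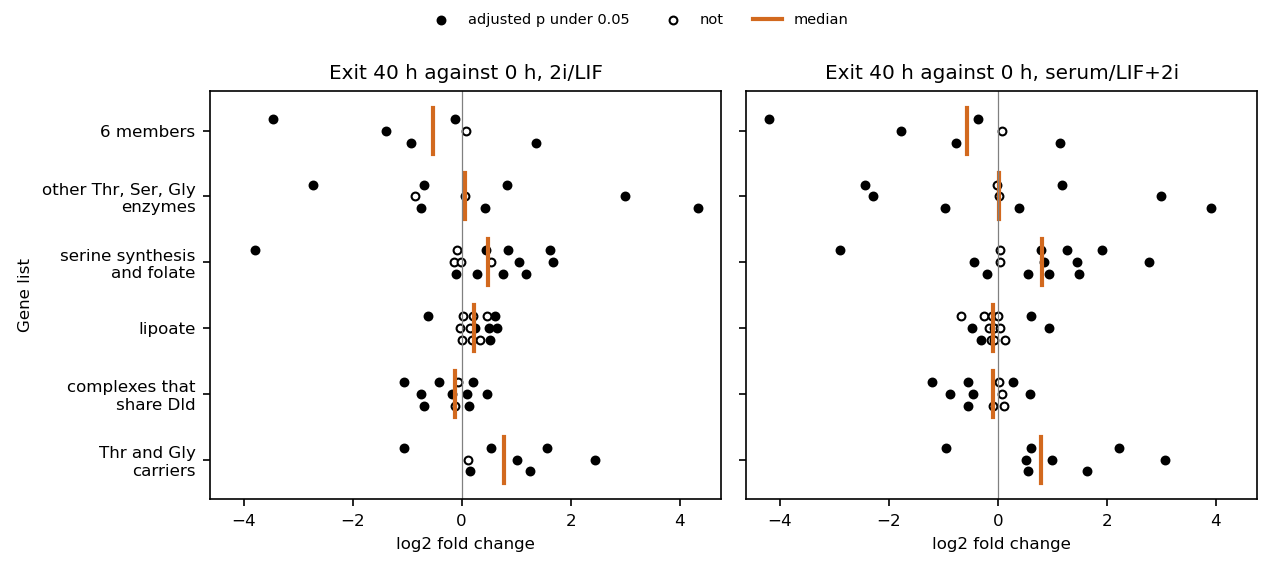
Log2 fold change at 40 h against 0 h (x axis) of the 6 members and of each tested gene of the 5 pathway lists (rows), with 1 panel per medium. Filled points had an adjusted p under 0.05, and the orange bar is the median of a row, 0.49 and 0.81 for the serine and folate list and 0.78 and 0.80 for the carriers.

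Between the media at 0 h, 14.6% of tested genes were higher and 18.4% lower in serum/LIF+2i. Counts of higher and lower genes in the lists were 1 and 2 of 9 for the other threonine, serine and glycine enzymes, 2 and 2 of 14 for serine synthesis and folate, 2 and 1 of 14 for lipoate, 3 and 2 of 11 for the Dld complexes, and 2 and 1 of 8 for the carriers. Apart from the test against a log2 change of at least 1, the other settings gave 1 to 2 higher and 1 to 2 lower, 2 and 2 to 3, 1 to 3 and 1, 1 to 3 and 2, and 1 to 2 and 1 in the same order. Without 2i/LIF 0 h replicate 2, or without serum/LIF+2i 0 h replicate 2, 1 gene was higher in each of the lipoate, Dld complex and carrier lists. Without 2i/LIF 0 h replicate 1 the lipoate list had 1 higher and the other enzymes 2, and without 2i/LIF 0 h replicate 2 or serum/LIF+2i 0 h replicate 1 the other enzymes had 1 lower. In the Dld complexes 2 were higher without either 2i/LIF 12 h library or either serum/LIF+2i 40 h library, and 3 of the serine synthesis and folate list were lower without serum/LIF+2i 0 h replicate 1. Aldh1l1 was lower (-1.11 ± 0.0965, adjusted p = 6.14e-19), as were Slc1a4 (-0.70 ± 0.0935, adjusted p = 3.64e-10) and Gss (-0.60 ± 0.0572, adjusted p = 7.16e-17). Slc38a1 was higher (0.38 ± 0.0483, adjusted p = 9.62e-11), as was Gart (0.34 ± 0.0377, adjusted p = 2.32e-13).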

How the data were processed

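Gene counts of 16 libraries were used as the authors deposited them: whole-number counts, not normalized, beside identifiers, symbols and gene lengths, per the file headers. The submitters' processing notes name fastp, STAR, featureCounts and the mm10 build, with no versions, and the strand setting is not given in the sources used here. Libraries were prepared with a stranded poly(A) kit, per the labels' protocols. Groups were taken from the titles. The treatment text gives 24 and 40 h for serum/LIF+2i cells, and 12 h libraries were grouped by their titles.

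Genes were kept with edgeR's filterByExpr (minimum count 10, minimum total 15; 14288 of 27179), scaled by TMM and fitted in 1 quasi-likelihood model (edgeR 4.0.16, R 4.3.3) with a term per group and 8 residual degrees of freedom. For 17 comparisons p-values were adjusted by Benjamini-Hochberg over all tested genes, and called under 0.05. CPM is TMM-scaled, and log2 CPM for correlations used a prior count of 2. Depth sets 3 counts at 0.259 to 0.517 CPM. The fit was also run on counts simulated with the spread estimated here. Such a run cannot show whether libraries were independent or whether that spread was right. Pairing of libraries by replicate number was not seen over all tested genes together: over 28 pairs of groups, deviations of the same number correlated at -0.023 to 0.033. Sharing limited to a subset of genes could go unseen in this check. DESeq2 1.42.0, other scalings, filters and fits, and leaving out each library were tried; applying these to the list counts was chosen after seeing the data. Near copies were sought with BLAST 2.17.0.

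Named were all 6 members, up to 3 called genes per list with the smallest adjusted p at 40 h, also shown in the other medium, and the 3 genes most like each member. Between media at 0 h only part of the genes ranked this way were given, and Ogdh, Mcat, Mthfd1 and Slc38a4 were not named. Tha1, Sds, Sdsl and the single primitive endoderm and fibroblast genes were named outside this rule. The members and lists were chosen with earlier results of these data known.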

Additional observations from a re-analysis of the deposited data

Results flagged for a closer look

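The exit effect of 4 members differed between the media by the test of the difference itself (edgeR's quasi-likelihood test, effect in serum/LIF+2i minus effect in 2i/LIF, adjusted over all tested genes). At 24 h 3 members were called, where 20.8% of tested genes were called in either direction. The difference was -0.89 for Tdh (adjusted p = 9.84e-27), -0.27 for Amt (adjusted p = 0.00883) and -0.25 for Gcsh (adjusted p = 0.00796). At 40 h 4 were called, against 27.6% of tested genes. The difference was then -0.74 for Tdh (adjusted p = 2.16e-16), -0.39 for Amt (adjusted p = 0.000372), -0.23 for Gcsh (adjusted p = 0.0129) and -0.22 for Gldc (adjusted p = 0.0036). With DESeq2 the 24 h call of Amt was lost (adjusted p = 0.0942), as were the Gcsh calls at 24 h (adjusted p = 0.0718) and 40 h (adjusted p = 0.0857). These calls were also lost when some single libraries were left out, as given above. For Tdh and Amt, both media moved down and serum/LIF+2i moved further. For Gldc both moved up and serum/LIF+2i moved less. For Gcsh both moved down, with unstable calls in 2i/LIF, and serum/LIF+2i moved further from a 0 h level that was higher there by 0.30 (log2). The Gcsh differences between media at 24 and 40 h (0.048 and 0.073) did not pass the threshold. The summed naive markers lay within 2177 to 2249 CPM in all 12 h libraries. Their sum was also lower in serum/LIF+2i at 24 h (760 to 765 CPM against 1037 to 1051 CPM). At 40 h it was 159 to 161 CPM there against 172 CPM in both 2i/LIF libraries. Gene by gene, 0 of these 7 were called higher in serum/LIF+2i and 5 lower at 24 h (median log2 difference -0.38). Of all tested genes, 14.1% were higher and 17.0% lower at 24 h, and 13.9% and 13.4% at 40 h. At 40 h the 7 naive genes were split, with 3 higher and 2 lower (median 0.30). Of the 5 formative genes, 1 was higher and 3 lower at 24 h (median -0.21), and 0 were higher and 5 lower at 40 h (median -0.62). The part of these differences in the values above was not tested.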

How the results depend on the processing

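The calls of Tdh in the 6 exit effects held under every alternative except a test against a log2 change of at least 1, where both 12 h calls were lost. In that test the members called were 0, 1 and 3 at 12, 24 and 40 h of exit for 2i/LIF, where 831, 1768 and 3035 of 14288 tested genes were called. For serum/LIF+2i they were 0, 1 and 3, beside 1083, 2203 and 3114 genes. The 2i/LIF steps had 0 and 1 (240 and 778 genes) and the serum/LIF+2i steps 1 and 1 (600 and 736 genes). Between media at 0, 12, 24 and 40 h there were 0, 0, 0 and 0 (166, 81, 75 and 44 genes). The differences in exit effect at 24 and 40 h had 0 and 0 (55 and 122 genes). The construction of that test asks for a larger change. DESeq2 called 1 member at 24 h, Tdh, for the difference in exit effect, against 3, and the cause was not tested. Leaving out 1 library gave 0 to 6 members called, each count within 1.5 times that of the full fit.

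Direction turned only in values near 0 that were not called. For the step from 24 to 40 h in 2i/LIF, Gcsh became 0.0092 with DESeq2, 0.0094 with DESeq2 size factors, 0.0347 with library size only, 0.0226 with a mean of at least 5 CPM and 0.0057 without ribosomal RNA genes, and Gcat 0.022 with library size only and 0.01 with a mean of at least 5 CPM. In serum/LIF+2i the same step of Dld became 0.0059, 0.006, 0.0414, 0.0202 and 0.0072 under those 5 settings. Between media, Dld became 0.0081 with library size only, 0.0074 with only the groups compared and 0.007 without ribosomal RNA genes at 0 h, and 0.0132 with library size only at 40 h. In the difference in exit effect, Amt became -0.0102 at 12 h without ribosomal RNA genes, and Dld at 40 h 0.001 with DESeq2, 6e-04 with its size factors, 0.0051 with library size only and 0.004 with a mean of at least 5 CPM.

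With 1 library left out, ranges that crossed 0 were, for the step from 24 to 40 h, -0.1082 to 0.059 (Gcat, 2i/LIF), -0.0558 to 0.0306 (Gcsh, 2i/LIF), -0.0089 to 0.0241 (Gcsh, serum/LIF+2i) and -0.0468 to 0.0303 (Dld, serum/LIF+2i). Between media they were -0.0234 to 0.0548 (Amt, 0 h), -0.0483 to 0.022 (Dld, 0 h), -0.0111 to 0.0868 (Amt, 12 h) and -0.0377 to 0.007 (Dld, 40 h). In the difference in exit effect they were -0.1037 to 0.0318 (Gcat, 12 h), -0.0243 to 0.074 (Amt, 12 h), -0.0275 to 0.1401 (Gcat, 24 h) and -0.038 to 0.0276 (Dld, 40 h). A lone library was taken to vary like the other groups.

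Over all genes, DESeq2 called 3115, 2668, 2729 and 2010 between media at 0, 12, 24 and 40 h, against 4710, 4334, 4439 and 3897, and 574, 1789 and 2419 for the difference in exit effect, against 1315, 2966 and 3940. The test against a log2 change of 1 called 3035 and 3114 genes at 40 h of exit, against 9837 and 10080. Without 2i/LIF 40 h replicate 1, 2240 genes were called between media at 40 h. Higher genes were 41.3% of the calls for the difference in exit effect at 12 h without ribosomal RNA genes, against 52.2%. The replicate block, which added the replicate number to the fit, kept all 102 member results on their side of the threshold, with Tdh at 40 h at -3.45 (2i/LIF) and -4.19 (serum/LIF+2i), and the replicate numbers are only numbers. With 2 libraries a group, some small changes of Gcsh and Dld were lost when 1 library was left out, as given beside them.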

Other observations

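Among the enzymes that consume glycine, a pair near the limit of counting at 0 h had gained counts by 40 h, and both were singled out after their values were seen. Gnmt, glycine N-methyltransferase, had 1 to 3 counts per library at 0 h in 2i/LIF and 3 in each at 0 h in serum/LIF+2i, against 45 to 59 and 63 to 88 at 40 h. Gatm, which transfers an amidino group to glycine on the way to creatine, had 2 to 4 and 5 to 6 counts, against 24 to 37 and 68 to 75. Both passed the filter on low counts only through later groups, so no test is given. No fold is given for Gnmt, whose 0 h libraries were at or under 3 counts. At 40 h both were still at a mean of 3.95 to 6.84 CPM.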
